A study of Homo sapiens with 6 samples.

Results

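The genes described here are 6 mesenchymal marker genes (CDH2, VIM, FN1, TGFBI, TNC and CD44) and 4 genes for transcription factors of the epithelial-mesenchymal transition, or EMT (SNAI1, SNAI2, ZEB1 and ZEB2). They were chosen by gene symbol, and each of the 10 symbols matched 1 row of the deposited table, which holds 61806 genes. RNA was sequenced from Ishikawa cells, an established human line of endometrial adenocarcinoma, in 3 libraries labelled TEFM overexpression and 3 labelled EV. The labels do not spell out EV, the way TEFM was introduced or whether the TEFM cells are 1 clone. They name no other treatment, and cells of both groups were grown in DMEM with fetal bovine serum. TEFM, the mitochondrial transcription elongation factor, stood at 23.65, 22.72 and 23.98 FPKM in TEFM libraries and at 4.13, 4.24 and 4.55 FPKM in EV libraries. FPKM scales the counts of a gene by its exon length and by the total of its library. The libraries held 14252668 to 17562807 counts in TEFM and 15092555 to 17891047 in EV. The submitters describe the replicates as biologically independent; if they share 1 derivation of the line, the p-values do not cover differences between derivations.

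In an epithelium, E-cadherin (CDH1) and keratins hold cells in a sheet. In the EMT, zinc finger repressors of the Snail family (SNAI1, SNAI2) and of the ZEB family (ZEB1, ZEB2) bind E-box motifs at epithelial genes, and cells exchange E-cadherin for N-cadherin (CDH2), keratins for vimentin (VIM), and lay down fibronectin (FN1), tenascin C (TNC) and the transforming growth factor beta induced protein (TGFBI). CD44, the receptor for hyaluronan, is carried by epithelial and mesenchymal cells alike, in different splice forms. In endometrial carcinoma this exchange is studied in connection with invasion, and carcinoma lines can carry some of its genes and lack others.

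The EMT genes did not change in 1 direction. CDH2, TGFBI, FN1, TNC and ZEB1 were lower in the TEFM libraries, CD44 and SNAI1 were higher, and VIM, SNAI2 and ZEB2 were at or near 0 in both groups. A mean of at least 1 FPKM over the 6 libraries, the condition for testing, was met by 7 of the 10 genes and by 14254 genes in all. With edgeR's quasi-likelihood test and Benjamini-Hochberg adjustment over all 14254 genes (threshold 0.05), 2 EMT genes rose and 5 fell. In the same test 43.4% of all tested genes passed, 21.7% higher and 21.7% lower in TEFM. The FPKM ranges of the groups did not overlap for any of the 7, 2 higher and 5 lower in TEFM; this held for 51.6% of all tested genes, 21.1% higher and 30.5% lower. Of the 7, CDH2 and TGFBI passed and differed by 1 or more on the log2 scale, both lower, as did 3.47% of all tested genes, 1.58% of all being lower. The median log2 fold change was -0.58 over the 7 tested EMT genes and -0.00 over all tested genes; the genes were chosen with results of these data known, so these numbers describe them and are no test of the group.

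**Figure D1:**
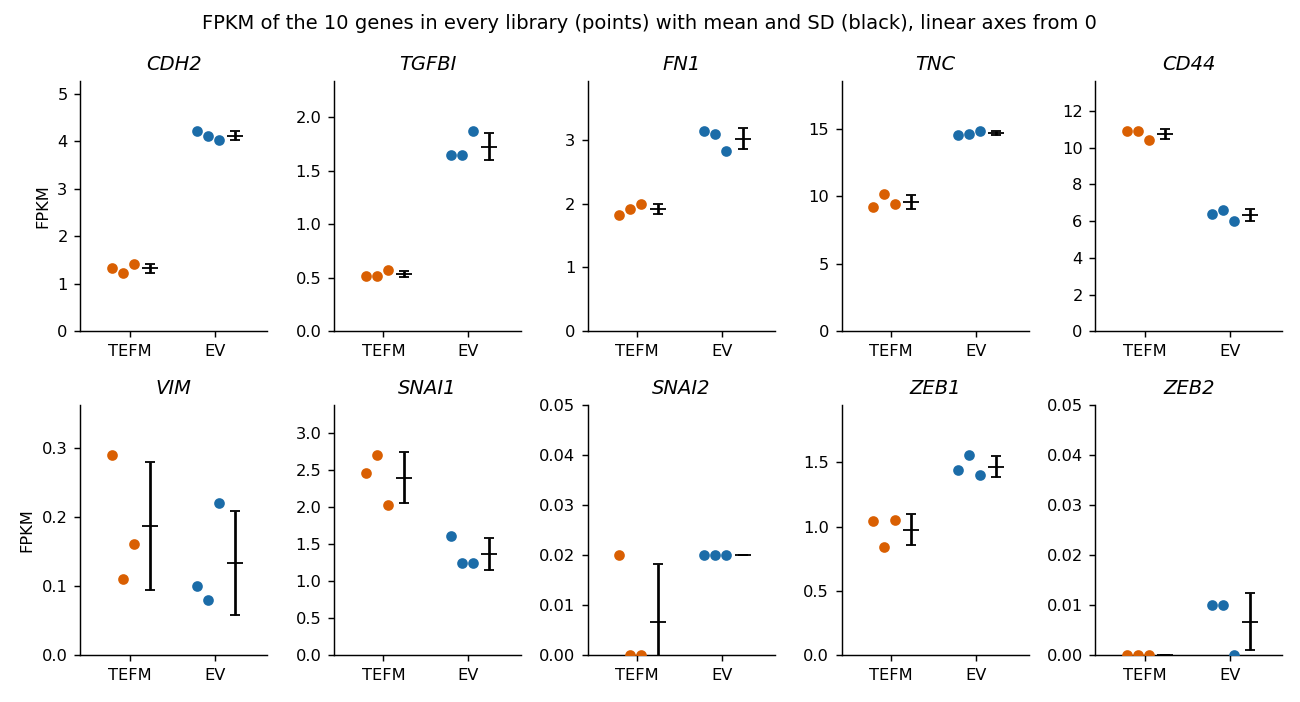
FPKM (linear axes from 0) of each of the 10 genes in the 3 TEFM libraries (orange) and the 3 EV libraries (blue); black bars give the mean and SD of each group. Groups are apart for CDH2, TGFBI, FN1, TNC, CD44, SNAI1 and ZEB1, and overlap for VIM, SNAI2 and ZEB2.

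Among the markers, CDH2 fell to about a 3-fold lower level. CDH2 (ENSG00000170558, chromosome 18, 27932879 to 28177946, minus strand) encodes N-cadherin, which joins mesenchymal and neural cells by homophilic contacts. It stood at 1.32, 1.23 and 1.41 FPKM in TEFM libraries, against 4.21, 4.11 and 4.02 FPKM in EV libraries. The highest TEFM library lay far below the lowest EV library, and each group spread little. CDH2 averaged 1.32 ± 0.0900 FPKM in TEFM and 4.11 ± 0.0950 FPKM in EV (SD, n = 3 each), from 551 and 1733 counts in all. The level in EV was 3.03-fold that in TEFM, which is -1.60 ± 0.0911 on the log2 scale (fold change and standard error, edgeR adjusted p = 5.68e-13). Of all tested genes, 1.73% had a larger absolute log2 fold change.

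Beside N-cadherin, E-cadherin is the second classical cadherin by which the EMT is followed. The ratio of CDH2 to CDH1 FPKM was 0.0202, 0.0183 and 0.0211 in TEFM libraries, against 0.0781, 0.0771 and 0.0766 in EV libraries. Every TEFM value was below every EV value. The ratio averaged 0.0199 ± 0.00145 in TEFM and 0.0772 ± 0.000789 in EV (SD, n = 3 each), a log2 difference of -1.96; the exact two-sided permutation p was 0.1, the smallest that 3 against 3 libraries allow. CDH1 itself averaged 66.5 ± 0.920 FPKM in TEFM and 53.2 ± 0.698 FPKM in EV, so E-cadherin RNA exceeded N-cadherin RNA per length in both groups. Of the listed catenins, partners of both cadherins, JUP, the gene for plakoglobin, rose (log2 fold change 0.25) and CTNNA1 rose (0.11). CTNND2, which met the condition for testing only through its EV level, fell (-0.49). CTNNB1, for beta-catenin, differed by 0.08 on the log2 scale, short of the threshold (edgeR adjusted p = 0.235).

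TGFBI fell by about as much as CDH2, and which of the pair fell more turned with the setting. TGFBI (ENSG00000120708, chromosome 5, 136028988 to 136063818, plus strand) encodes a secreted matrix protein that binds integrins and is named for its response to transforming growth factor beta. Its values were 0.52, 0.52 and 0.57 FPKM in TEFM libraries, against 1.65, 1.65 and 1.87 FPKM in EV libraries, without overlap. It averaged 0.537 ± 0.0289 FPKM in TEFM and 1.72 ± 0.127 FPKM in EV (SD, n = 3 each), or -1.65 ± 0.145 as log2 fold change and standard error (edgeR adjusted p = 1.73e-09). TGFBI met the condition for testing only through its EV level: its mean over all 6 libraries was 1.13 FPKM. The fold depends on the scale at such low levels: limma on log2(FPKM + 1) gave a log2 fold change of -0.82 for TGFBI and -1.14 for CDH2.

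The other matrix genes fell by less. FN1 (ENSG00000115414, chromosome 2, 215360440 to 215436073, minus strand) encodes fibronectin, the fibrous protein to which integrins anchor the cell. It stood at 1.83, 1.92 and 1.99 FPKM in TEFM libraries, against 3.14, 3.09 and 2.83 FPKM in EV libraries. No TEFM library reached an EV value, and FN1 fell by 0.62 on the log2 scale, standard error 0.0707 (edgeR adjusted p = 1.07e-07). TNC (ENSG00000041982, chromosome 9, 115019575 to 115118257, minus strand) encodes tenascin C, a hexameric matrix protein that weakens adhesion to fibronectin. It stood at 9.18, 10.15 and 9.42 FPKM in TEFM libraries, against 14.57, 14.64 and 14.84 FPKM in EV libraries. Here too the groups did not overlap, and TNC fell by 0.58 on the log2 scale, standard error 0.0474 (edgeR adjusted p = 4.87e-10). Larger absolute log2 fold changes than those of FN1 and TNC were found in 11.9% and 13.7% of all tested genes. Gene-level counts do not separate the splice forms of FN1 and TNC.

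CD44 was the 1 marker that rose. CD44 (ENSG00000026508, chromosome 11, 35138882 to 35232402, plus strand) had 10.91, 10.90 and 10.43 FPKM in TEFM libraries, against 6.38, 6.61 and 6 FPKM in EV libraries. All TEFM values were above all EV values. It averaged 10.8 ± 0.274 FPKM in TEFM and 6.33 ± 0.308 FPKM in EV (SD, n = 3 each), a 1.75-fold rise, or 0.80 ± 0.0521 on the log2 scale (fold change and standard error, edgeR adjusted p = 6.29e-12). The standard and the variant splice forms of CD44 were counted together. The genes for splicing factors that favour the epithelial forms moved apart: ESRP1 fell (27.7 ± 0.944 FPKM in TEFM and 35.2 ± 1.96 FPKM in EV) and ESRP2 rose (11.1 ± 0.847 FPKM in TEFM and 8.22 ± 0.720 FPKM in EV).

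Vimentin RNA was close to absent in both groups. VIM (ENSG00000026025, chromosome 10, 17228241 to 17237593, plus strand) encodes the intermediate filament protein of mesenchymal cells and is a widely used marker of the transition. It had 25, 10 and 12 counts in TEFM libraries, or 0.29, 0.11 and 0.16 FPKM, against 9, 6 and 18 counts in EV libraries, or 0.10, 0.08 and 0.22 FPKM. The groups overlapped, and VIM missed the condition for testing. The pooled counts, 47 in TEFM and 33 in EV, gave, relative to the library totals, a ratio of 1.43 with an exact 95% interval of 0.899 to 2.31, which covers counting error only; edgeR without a filter on low values gave an adjusted p of 0.509. A difference in VIM was not detectable at this depth. KRT18, the keratin gene set against VIM here, averaged 154 ± 8.82 FPKM in TEFM and 124 ± 12.2 FPKM in EV, and the ratio of VIM to KRT18 was 0.00121 ± 0.000559 in TEFM and 0.00104 ± 0.000483 in EV (SD, n = 3 each, exact permutation p = 0.7).

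Among the transcription factors, the 2 that were tested moved in opposite directions. SNAI1 (ENSG00000124216, chromosome 20, 49982980 to 49988886, plus strand) encodes Snail, a repressor of CDH1 that is controlled largely through the stability of its protein. It had 2.46, 2.70 and 2.02 FPKM in TEFM libraries, against 1.61, 1.24 and 1.24 FPKM in EV libraries. The TEFM libraries were all higher, but TEFM replicate 3 lay nearer to EV replicate 1 than to TEFM replicate 2. SNAI1 averaged 2.39 ± 0.345 FPKM in TEFM and 1.36 ± 0.214 FPKM in EV (SD, n = 3 each), from 201 and 115 counts in all. It rose by 0.85 on the log2 scale, and its standard error of 0.229 was the widest of the tested EMT genes (edgeR adjusted p = 0.00403). On the scale of limma on log2(FPKM + 1) it was 0.52.

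ZEB1 (ENSG00000148516, chromosome 10, 31318495 to 31529814, plus strand) encodes a repressor with paired zinc finger clusters that is held in check by microRNAs of the miR-200 family. It had 1.04, 0.84 and 1.05 FPKM in TEFM libraries, against 1.44, 1.56 and 1.40 FPKM in EV libraries. All TEFM values lay below all EV values. ZEB1 averaged 0.977 ± 0.118 FPKM in TEFM and 1.47 ± 0.0833 FPKM in EV (SD, n = 3 each), or -0.55 ± 0.131 as log2 fold change and standard error (edgeR adjusted p = 0.00137). ZEB1 too met the condition for testing through its EV level. With limma on log2(FPKM + 0.1) the adjusted p was 0.0543, and with limma on log2(FPKM + 1) the log2 fold change was -0.32.

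The other members of both families gave almost no reads. SNAI2 (ENSG00000019549, chromosome 8), which encodes Slug, had 1, 0 and 0 counts in TEFM libraries, against 1, 1 and 1 in EV libraries, too few for a fold. ZEB2 (ENSG00000169554, chromosome 2, 144364364 to 144521057, minus strand) had 1, 0 and 0 counts in TEFM libraries, against 3, 2 and 1 in EV libraries. Relative to the library totals, the ratio of the ZEB2 counts was 0.168 with an exact 95% interval of 0.00365 to 1.38, an interval that holds 1. Deposited FPKM are rounded to hundredths, so a library with 1 ZEB2 count is listed at 0.

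**Figure D2:**
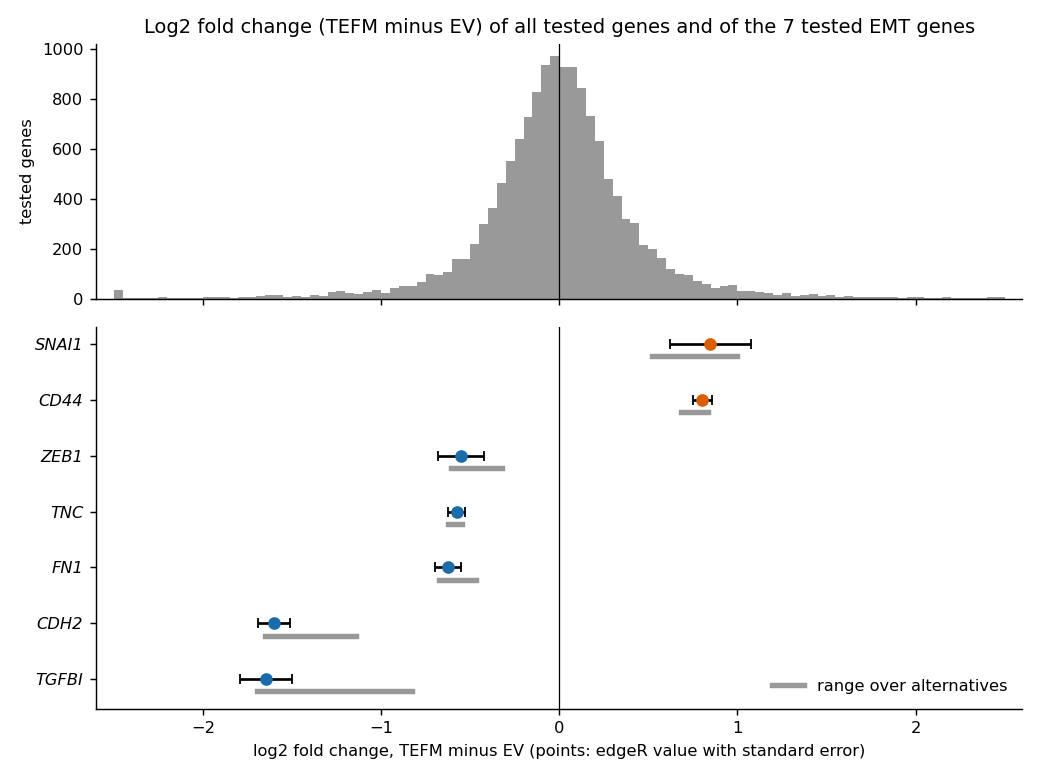
Upper panel, histogram of the log2 fold change (TEFM minus EV) of the 14254 tested genes, with the 67 genes beyond 2.5 in either direction placed at the edges. Lower panel, the 7 tested EMT genes with edgeR standard errors and, as grey bars, the range over the alternative analyses; SNAI1 and CD44 lie right of 0, and the other 5, with CDH2 and TGFBI farthest out, lie left of it.

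The order of levels differed between the groups, at the top and below it. In TEFM libraries CD44 came first and TNC second, and their ranges did not overlap. Then came SNAI1, FN1, CDH2, ZEB1, TGFBI and VIM, each range apart from the next, with SNAI2 and ZEB2 last and not separable. In EV libraries the order was TNC, CD44, CDH2, FN1, TGFBI, ZEB1, SNAI1, VIM, SNAI2 and ZEB2. The ranges of ZEB1 and SNAI1 overlapped there. SNAI2, with 1, 1 and 1 counts, and ZEB2, with 3, 2 and 1, cannot be ordered in EV libraries either. TNC and CD44 stood above the middle of the tested genes, and the other tested EMT genes stood low among them. The mean FPKM of TNC over the 6 libraries exceeded that of 72.6% of tested genes and that of CD44 62.3%, but that of CDH2 only 28.3% and that of TGFBI 3.58%.

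RefSeq promoter windows, taken as the 250 bases before an annotated start, were found for 8 of the 10 genes. The windows of the genes with the largest falls, CDH2 and TGFBI, are shown with those of FN1 and ZEB1, the only nearest-start windows of the 8 genes with a match to a searched motif. Capitals mark such a match: CACCTG, the E-box core read by Snail and ZEB factors, TGANTCA, the AP-1 site, TGACGTCA, the cyclic AMP response element, TATAAA, the TATA box, and the NF-kB consensus, each on both strands. They are given on the strand of the gene, 5′ to 3′, from GRCh38.p14. The RefSeq starts lie 816 bases from the deposited gene start for CDH2, 0 for TGFBI, 5 for FN1 and 78 for ZEB1.
CDH2, chr18:28177131-28177380, minus strand: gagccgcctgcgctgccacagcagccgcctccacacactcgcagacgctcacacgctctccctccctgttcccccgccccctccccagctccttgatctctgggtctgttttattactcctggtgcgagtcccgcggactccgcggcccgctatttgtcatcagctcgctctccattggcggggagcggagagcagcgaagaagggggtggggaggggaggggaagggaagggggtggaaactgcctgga
TGFBI, chr5:136028738-136028987, plus strand: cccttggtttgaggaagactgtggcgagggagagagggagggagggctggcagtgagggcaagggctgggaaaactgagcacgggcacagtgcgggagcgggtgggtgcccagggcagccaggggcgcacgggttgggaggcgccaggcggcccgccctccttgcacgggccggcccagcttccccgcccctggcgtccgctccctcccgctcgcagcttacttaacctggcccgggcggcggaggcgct
FN1, chr2:215436069-215436318, minus strand: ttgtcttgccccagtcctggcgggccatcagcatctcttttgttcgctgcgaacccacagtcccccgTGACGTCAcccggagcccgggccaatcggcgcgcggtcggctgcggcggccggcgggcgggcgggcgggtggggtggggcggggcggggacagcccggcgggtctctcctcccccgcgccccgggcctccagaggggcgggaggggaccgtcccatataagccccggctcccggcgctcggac
ZEB1, chr10:31318167-31318416, plus strand: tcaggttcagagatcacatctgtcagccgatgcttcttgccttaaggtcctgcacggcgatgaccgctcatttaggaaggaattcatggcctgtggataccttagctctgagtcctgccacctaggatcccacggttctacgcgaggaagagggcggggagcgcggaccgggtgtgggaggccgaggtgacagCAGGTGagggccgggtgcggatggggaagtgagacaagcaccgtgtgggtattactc
The FN1 window held TGACGTCA 183 bases before the start, a motif found in 1.65% of 35116 RefSeq windows of this length. The ZEB1 window held CAGGTG, the reverse complement of CACCTG, 57 bases before the start. That E-box was found in 17.5% of all windows, and another annotated ZEB1 window held 2 matches to it. No window nearest to a deposited start held TGANTCA (6.57% of all windows), TATAAA (10.7%) or the NF-kB consensus (9.96%), but other annotated windows of the same genes did: a second CDH2 window held 1 TGANTCA and 1 TATAAA, and a second ZEB1 window held 2 matches to the NF-kB consensus. The windows of CDH2 and TGFBI were rich in G and C, at 66.0% and 72.8%, where the median of all windows was 58.0%. A match is a run of letters and not a measured binding site.

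Genes that overlap these loci were examined, because the sources used here do not say whether counting used strand. At CDH2, the opposite-strand gene ENSG00000227279 had 1, 1 and 2 counts in TEFM libraries, against 11, 9 and 8 in EV libraries, the same direction as CDH2 itself. It shares 136 exonic bases with CDH2 in GENCODE release 29. At ZEB1, the antisense gene ZEB1-AS1 had 149, 154 and 123 counts in TEFM libraries, against 152, 148 and 120 in EV libraries. It did not move with ZEB1: it differed by 0.07 ± 0.142 on the log2 scale (fold change and standard error, edgeR adjusted p = 0.742). CD44-AS1 had 7, 13 and 3 counts in TEFM libraries, against 1, 2 and 0 in EV libraries, at most 13 beside at least 963 of CD44. VIM-AS1, which shares 641 exonic bases with VIM, had 0, 7 and 2 counts in TEFM libraries, against 4, 0 and 0 in EV libraries. The pseudogenes SNAI1P1 and ZEB2P1 had 0 counts.

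The position of the genes on their chromosomes was compared with their change. Around CDH2, 32 tested genes started within 5 Mb, with a median log2 fold change of -0.10, and none was lower than CDH2. Around TGFBI, the median of 81 genes was 0.03 and none was lower than TGFBI. Around CD44, the median of 30 genes was -0.05 and none was higher than CD44. Around SNAI1 the median of 58 genes was 0.02, with 4 genes higher than SNAI1. For ZEB1 the surrounding 35 genes had a median of -0.17, with 15 of them lower in TEFM and 2 higher. Of these neighbours, 5 were lower than ZEB1 itself. Around CDH2, 10 of the 32 were lower and 4 higher, and around VIM 9 of 28 were lower and 1 higher. Around TGFBI and SNAI2 more were higher than lower, at 21 against 13 and 2 against 1. Over all tested genes, 21.7% were lower and 21.7% higher. For FN1 and TNC the medians of 49 and 36 genes were 0.01 and -0.03.

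**Figure D3:**
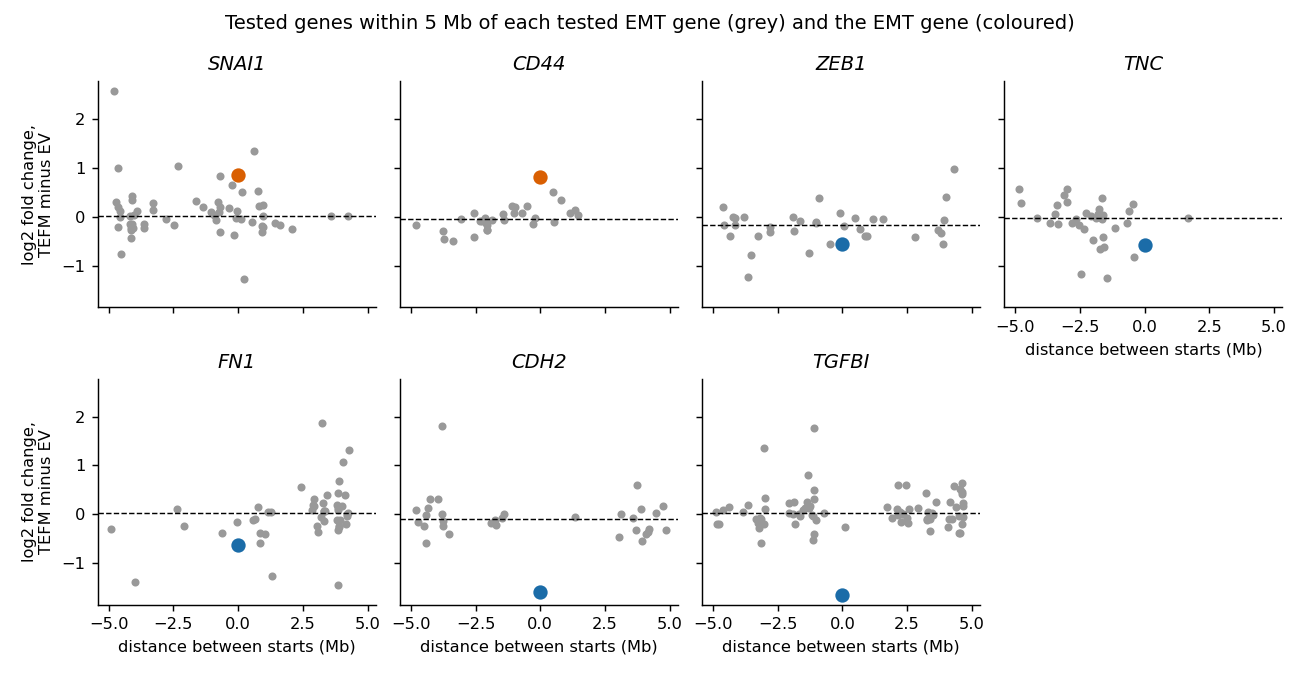
Log2 fold change (TEFM minus EV) of tested genes within 5 Mb of each tested EMT gene (grey) against the distance between starts in Mb, with the EMT gene coloured and the median of its neighbours dashed. CDH2, TGFBI and CD44 lie outside the range of all their neighbours, while ZEB1 lies among neighbours with a median of -0.17.

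The genes with profiles most like those of the tested EMT genes were found by the root mean square difference of log2(FPKM + 1) over the 6 libraries, each profile centred on its own mean. Nearest to CDH2 were FADS2 (0.047), a fatty acid desaturase gene, PCDH9 (0.056), a protocadherin gene, and EYA4 (0.062). Nearest to TGFBI was SREBF2 (0.031), which encodes the sterol-responsive transcription factor, then SOX9 (0.034) and ZMIZ1 (0.044). Nearest to TNC were NPC1 (0.025), the lysosomal cholesterol transporter gene, LIPG (0.027) and SLC7A5 (0.028). Nearest to CD44 were ABCA1 (0.020), the cholesterol efflux transporter gene, HS6ST3 (0.033) and the interferon-stimulated gene IFIT1 (0.035). Nearest to SNAI1 was the kinase gene PIM2 (0.029), to FN1 PEA15 (0.013) and to ZEB1 BORA (0.028). With 2 groups of 3 libraries these profiles are mostly the difference between groups. The pseudocount of 1 shrinks differences at low levels, so a near profile does not mean an equal fold. The edgeR log2 fold change was -0.77 for SREBF2 and -0.784 for SOX9, against -1.65 for TGFBI. It was -0.96 for LIPG, against -0.58 for TNC, and ABCA1 rose by more than CD44. ABCA1 met the condition for testing only through its TEFM level, and LIPG and PCDH9 only through their EV level. Other pairs were closer: -0.599 for NPC1 beside TNC, and 0.805 for IFIT1 beside 0.80 for CD44.

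The further factors that can drive the EMT did not move 1 way either. Of 16 listed, 7 were tested, of which 1 rose and 3 fell, beside 21.7% of all tested genes in each direction. The median log2 fold change of the 7 was -0.26. SOX9, an epithelial progenitor factor, fell (9.86 ± 0.147 FPKM in TEFM and 17.4 ± 0.782 FPKM in EV), as did HMGA2 (log2 fold change -0.26), which encodes a chromatin protein. SOX4 rose (30.2 ± 0.812 FPKM in TEFM and 22.5 ± 1.01 FPKM in EV). TWIST1, a helix-loop-helix factor, stood at 5.57 ± 0.253 FPKM in TEFM and 4.72 ± 0.244 FPKM in EV and did not pass (edgeR adjusted p = 0.0808). PRRX1 and GSC had 0 counts.

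Other mesenchymal genes rose more often than they fell. Of 26 listed, 18 were tested, of which 9 rose, 2 fell and 7 did not pass, with a median log2 fold change of 0.16. S100A4, a calcium-binding protein gene also known as fibroblast-specific protein, rose (51.8 ± 3.61 FPKM in TEFM and 33.5 ± 1.72 FPKM in EV). FSTL1, a secreted follistatin-like glycoprotein gene, rose by a log2 fold change of 0.38. LOX, for the collagen cross-linking enzyme, fell (3.09 ± 0.119 FPKM in TEFM and 5.10 ± 0.291 FPKM in EV), and so did SPP1 (-0.57), for osteopontin. Against 21.7% of all tested genes in each direction, 9 of 18 rose; among these, SPARC met the condition for testing only through its TEFM level.

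Of 22 listed epithelial genes that EMT factors repress, all were tested. Among them 15 rose, 4 fell and 3 did not pass, with a median log2 fold change of 0.36. Over all tested genes, 21.7% rose and 21.7% fell. ST14, for the membrane protease matriptase, rose by a log2 fold change of 0.85, KRT19 by 0.82, KRT8 by 0.53 and EPCAM by 0.47. KRT8, KRT18 and KRT19 have processed pseudogenes with which reads can be shared. The 4 that fell were MARVELD2 (-0.31), CDS1 (-0.29), PALS1 (-0.28) and TJP1 (-0.25), genes of tight junctions, cell polarity and, for CDS1, phospholipid synthesis. Among 12 tested antagonists of EMT factors, 4 rose and 3 fell, beside the same shares of all tested genes, with a median of 0.14. GRHL2, a grainyhead factor that opposes ZEB1, fell (12.1 ± 0.310 FPKM in TEFM and 18.0 ± 0.670 FPKM in EV), while ELF3, an epithelial ETS factor, rose by a log2 fold change of 0.44. MIR200CHG, the host gene of miR-200c and miR-141, stood at 2.20 ± 1.13 FPKM in TEFM and 1.37 ± 0.748 FPKM in EV. Its log2 fold change of 0.74, standard error 0.523, did not pass (edgeR adjusted p = 0.271). With 66 counts over the 6 libraries, a change could be missed. Mature microRNAs are not captured by poly(A) selection.

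Genes for the partner proteins of Snail and ZEB were read at the RNA level as well. Of 12 tested corepressor genes, 2 rose and 4 fell, where 21.7% of all tested genes rose and 21.7% fell. The median log2 fold change of the 12 was -0.07. EZH2, the histone H3 lysine methyltransferase, rose by 0.44 and SMARCA4, a chromatin remodeller, by 0.40, while HDAC2, a histone deacetylase, changed by -0.26 and CTBP1, the corepressor of ZEB1, by -0.20. Of 18 tested genes for the turnover of EMT factors, 2 rose and 9 fell, against the same shares, with a median of -0.14. GSK3B, the kinase that marks Snail for degradation, fell (8.76 ± 0.166 FPKM in TEFM and 11.6 ± 0.186 FPKM in EV). SIAH2 and USP10, for a ubiquitin ligase and a deubiquitinase, fell by 0.65 and 0.26 on the log2 scale, and CTDSP1, a phosphatase gene, had -0.24. Protein levels of Snail, of ZEB1 and of these partners were not measured.

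Genes of transforming growth factor beta signalling, the classical inducer of the transition, moved in both directions. The activity of the pathway was not measured. Of 18 tested ligand, receptor and SMAD genes, 7 rose, 6 fell and 5 did not pass, with a median log2 fold change of 0.06. Over all tested genes, 21.7% rose and 21.7% fell. SMAD3, the signal transducer, rose (4.36 ± 0.165 FPKM in TEFM and 2.30 ± 0.0361 FPKM in EV), while SKIL, a repressor of SMADs and itself a target of the pathway, fell (11.4 ± 0.678 FPKM in TEFM and 18.7 ± 1.13 FPKM in EV). SKI rose by a log2 fold change of 0.27 and SMURF2, a ubiquitin ligase gene, had -0.42. The rise of SMAD3 stood beside the fall of TGFBI.

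Several genes around CD44 were higher as well. Of 8 tested partner and hyaluronan genes, 5 rose, 1 fell and 2 did not pass, with a median log2 fold change of 0.29. The share over all tested genes was 21.7% in each direction. EZR and RDX encode ezrin and radixin, which link the tail of CD44 to actin. EZR rose (196 ± 0.366 FPKM in TEFM and 129 ± 0.582 FPKM in EV), RDX rose by a log2 fold change of 0.36 and HMMR, for a second hyaluronan receptor, by 0.25; SPP1, whose product binds CD44, is the 1 that fell. Receptors for fibronectin, TGFBI and tenascin were split, with 3 of 10 higher and 4 lower, against the same shares, and a median of -0.08. ITGA3 (0.76) and the syndecan gene SDC1 (0.56) rose together with ITGB5 (0.32), and ITGB8 (-0.52) fell.

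Relatives of vimentin and their linkers were read beside VIM. All 4 tested genes of the list rose, where 21.7% of all tested genes did, with a median log2 fold change of 0.70. LMNA, for the nuclear lamins A and C, rose (46.8 ± 3.08 FPKM in TEFM and 29.2 ± 3.19 FPKM in EV), as did SYNM (0.68), for synemin, and PLEC (0.20), for the linker plectin. DES, for the muscle filament desmin, stood at 1.60 ± 0.547 FPKM in TEFM and 0.773 ± 0.136 FPKM in EV (log2 fold change 1.07, edgeR adjusted p = 0.0023). DES met the condition for testing only through its TEFM level.

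**Figure D4:**
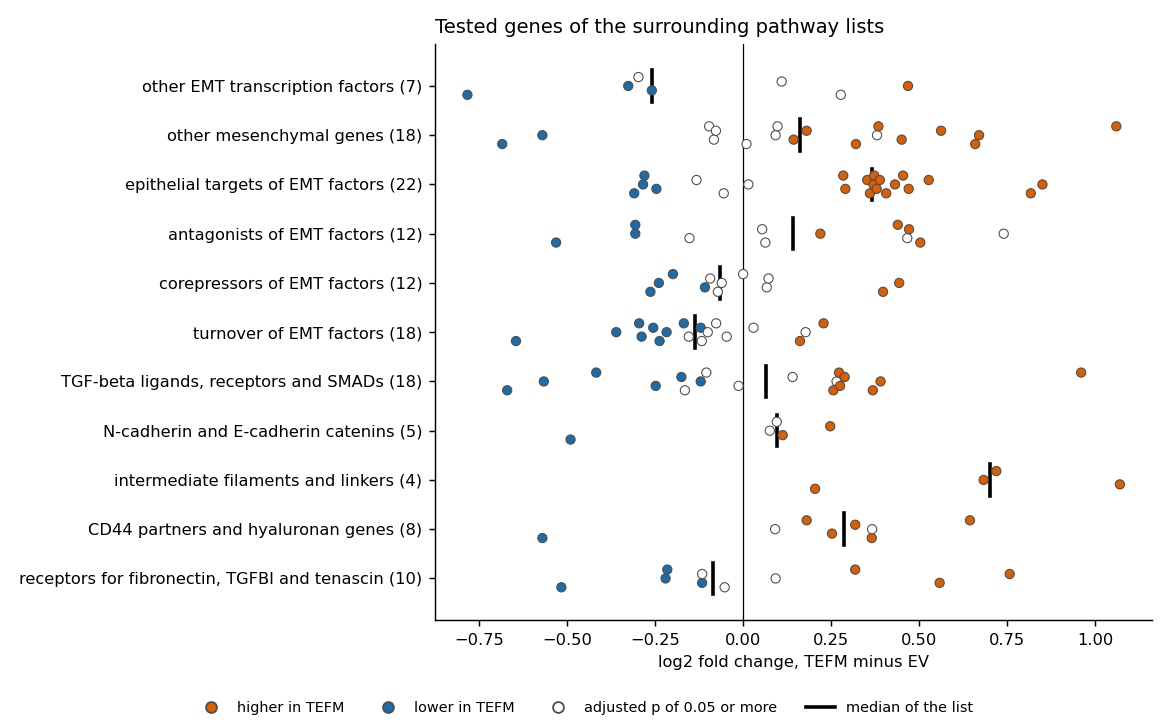
Log2 fold change (TEFM minus EV) of the tested genes of each surrounding list, with the number tested in parentheses; filled points passed the edgeR threshold (orange higher, blue lower in TEFM), open points did not, and black ticks are list medians. All 4 intermediate filament genes lie right of 0; each other list has genes on both sides.

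Markers of the line and of other cells were read beside these results. Of 11 epithelial identity markers, 9 were tested and 8 rose, where 21.7% of all tested genes did. The 8 include EPCAM, KRT8, KRT18, KRT19 and CDH1, already counted among the epithelial genes that EMT factors repress. Only KRT7, SOX17 and MUC1 were not counted there. PAX8, the Müllerian lineage factor, stood at 89.7 FPKM in TEFM and 89.3 FPKM in EV. The hormone receptor genes ESR1 and PGR were nearly absent, at no more than 0.0533 FPKM on average in either group. Of 13 stromal markers, 3 were tested and none passed, where 43.4% of all tested genes did. They were COL1A1, at 1.61 FPKM in TEFM and 1.58 FPKM in EV, and TAGLN, at 2.39 FPKM in TEFM and 2.07 FPKM in EV. ACTA2, the last of the 3, stood at 1.17 FPKM in TEFM and 1.34 FPKM in EV. HAND2, which was not tested, stood at 1.11 FPKM in TEFM and 0.313 FPKM in EV. The summed level of the 13 was 6.96 to 7.67 FPKM in TEFM libraries and 5.6 to 6.04 FPKM in EV libraries. DCN had 0 counts, and PDGFRA, PDGFRB and FAP each averaged at most 0.0200 FPKM in either group. The part of such cells in the results was not tested. Endothelial markers summed to at most 0.530 FPKM in TEFM and 0.390 FPKM in EV, and leukocyte markers to at most 1.24 FPKM in TEFM and 0.810 FPKM in EV, with none tested. In bulk RNA, fewer cells that carry a transcript and less of it per cell cannot be told apart.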

How the data were processed

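Poly(A)-selected RNA of 6 libraries was sequenced. The authors deposited raw counts and FPKM per gene. Per the submitters' processing notes, cutadapt 1.9.1 trimmed the reads and hg19 was the build; the sources used here give no aligner or counting tool. The deposited coordinates match GRCh38: 99.9% of 58254 gene IDs shared with GENCODE release 29 overlap there on the same chromosome. The deposited FPKM equal the counts scaled by exonic gene size and column total to within 0.005.

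Genes with a mean of at least 1 FPKM were tested on the deposited counts with edgeR 4.0.16 in R 4.3.3 (TMM scaling, quasi-likelihood F test, two-sided). Standard errors were derived from the F statistic. Ratios were compared with exact permutation tests in scipy 1.17.1. The fit was tested on simulated data. Alternatives were other scalings and filters, DESeq2 1.42.0, limma 3.58.1, each library left out, and a replicate block. Within groups, libraries were further apart than sampling noise allows (chi-square per degree of freedom 2.13 to 4.21). Same-numbered libraries did not deviate together (correlations -0.015 to 0.029).

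The genes and lists were chosen with earlier results of these data known. All 10 genes are named, with up to 4 genes of a list by smallest p among those that passed; other genes were named after their values were seen. Of the listed symbols only DUB3 was not matched. The values of 1 list gene are not reported here.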

Additional observations from a re-analysis of the deposited data

How the results depend on the processing

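For the 7 tested EMT genes the direction was the same under every alternative in which they were tested, and all stayed past the threshold except ZEB1 with limma on log2(FPKM + 0.1), where 4 in place of 5 EMT genes were lower. Log2 fold changes ranged from -1.65 to -1.14 for CDH2, -1.70 to -0.82 for TGFBI, -0.67 to -0.46 for FN1, -0.62 to -0.54 for TNC, 0.68 to 0.83 for CD44, 0.52 to 1.00 for SNAI1 and -0.61 to -0.32 for ZEB1. At a mean FPKM of at least 5, only CD44 and TNC were tested, so 1 EMT gene was higher and 1 lower, and 2046 of 7743 genes were higher. With a replicate block, 2986 genes were higher and 2949 lower, and 2 EMT genes were higher and 5 lower as without it; the CDH2 to CDH1 ratio differed by -1.96 with the block, whose exact p cannot go below 0.25. The numbers are not shown to pair the libraries. The VIM to KRT18 difference, 0.20 on the log2 scale, changed sign with a pseudocount of 1 (-0.25, exact permutation p = 0.1). VIM, at 0.08 to 0.29 FPKM, is small beside that pseudocount. As each library was left out, the difference ran from -0.15 to 0.55, negative without TEFM replicate 1 and without EV replicate 2. The cause was not tested. Depth limits SNAI2 and ZEB2 most, with 0 to 3 counts per library, then VIM, with 6 to 25, and SNAI1, with 32 to 81.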
